A study of Mus musculus with 4 samples.

Results

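The 10 genes described here, *Pecam1*, *Kdr*, *Flt1*, *Tek*, *Tie1*, *Cldn5*, *Eng*, *Emcn*, *Vwf* and *Ptprb*, are established markers of the cells that line blood vessels. They were chosen by name and matched by symbol to their Entrez identifiers, and all 10 were found among the 17667 genes listed in at least 1 library and among the 15275 listed in all 4. RNA was sequenced from sympathetic ganglia (SG) at thoracic levels T1-T4, which send nerves to interscapular brown fat, in C57BL/6 mice of 12 weeks after 1 day at 5 °C. The 4 libraries came from AdNTF3-Tg mice, from TRKC+/- mice and from 2 groups of WT mice, each library being a pool of ganglia from several animals. AdNTF3-Tg mice carry an NT-3 transgene driven by the adiponectin promoter, which is active in adipocytes. In TRKC+/- mice the NT-3 receptor TRKC is haploinsufficient, a loss that is not limited to 1 cell type.

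The labels number the WT libraries (WT replicate 1 and WT replicate 2) but do not say which was the control of which mutant, although the study describes separate WT controls for each, so each mutant library was set against both. Between 8665955 and 8894985 reads fell on genes per library. *Ntrk3*, which encodes TRKC, had 78 reads in WT replicate 1, 83 in WT replicate 2, 91 in TRKC+/- and 76 in AdNTF3-Tg. It was thus not lower in the heterozygote, which is therefore named below as the library labelled TRKC+/-. Which exons that allele lacks is not given in the sources used here, so these reads may lie outside the disrupted part. *Ntf3*, the NT-3 gene, had 2 reads in the library labelled TRKC+/- and was not listed in the others.

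Endothelial cells sense VEGF, the main growth signal of vessels, through the tyrosine kinase receptors VEGFR2 (*Kdr*) and VEGFR1 (*Flt1*). A separate receptor system, TIE2 (*Tek*) and its partner TIE1, binds angiopoietins and keeps vessels quiescent, and the phosphatase VE-PTP (*Ptprb*) dampens it. Endoglin (*Eng*) is a co-receptor of the BMP receptor ALK1, PECAM1 and claudin 5 (*Cldn5*) sit at endothelial contacts, endomucin (*Emcn*) is a surface sialomucin of capillaries and veins, and *Vwf* encodes the clotting glycoprotein stored in endothelial granules. Ganglia hold a dense capillary bed among the neuron bodies, and these vessels are known to be leakier than those of the brain.

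ETS-family transcription factors such as ERG, FLI1 and ETS1 are known regulators of many endothelial promoters and bind the core GGAA. The 250 bases before the start site are shown for both receptor pairs, *Kdr* with *Flt1* and *Tek* with *Tie1*, because their RNA levels are set against each other below. Sequences are from RefSeq on GRCm38.p6, which is not the build of the gene positions given below. They run 5′ to 3′ on the strand of the gene, with GGAA on either strand (TTCC as read here) in capitals.
Kdr (chr5:75978456-75978705, minus strand): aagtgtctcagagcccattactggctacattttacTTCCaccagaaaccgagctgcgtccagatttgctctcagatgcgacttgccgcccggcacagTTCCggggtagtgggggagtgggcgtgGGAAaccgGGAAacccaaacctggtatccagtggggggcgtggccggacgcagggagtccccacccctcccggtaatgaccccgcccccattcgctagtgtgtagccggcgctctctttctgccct
Flt1 (chr5:147726012-147726261, minus strand): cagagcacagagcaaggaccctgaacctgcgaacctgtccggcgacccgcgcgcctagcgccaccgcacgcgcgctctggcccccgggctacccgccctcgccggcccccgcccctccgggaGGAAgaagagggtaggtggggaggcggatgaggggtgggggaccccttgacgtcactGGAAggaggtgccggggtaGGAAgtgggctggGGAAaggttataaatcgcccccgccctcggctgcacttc
Tek (chr4:94739039-94739288, plus strand): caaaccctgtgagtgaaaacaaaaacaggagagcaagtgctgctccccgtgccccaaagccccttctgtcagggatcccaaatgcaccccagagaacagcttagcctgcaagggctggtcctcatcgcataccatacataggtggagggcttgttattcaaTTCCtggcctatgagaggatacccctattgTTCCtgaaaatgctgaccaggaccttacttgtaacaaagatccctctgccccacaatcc
Tie1 (chr4:118489850-118490099, minus strand): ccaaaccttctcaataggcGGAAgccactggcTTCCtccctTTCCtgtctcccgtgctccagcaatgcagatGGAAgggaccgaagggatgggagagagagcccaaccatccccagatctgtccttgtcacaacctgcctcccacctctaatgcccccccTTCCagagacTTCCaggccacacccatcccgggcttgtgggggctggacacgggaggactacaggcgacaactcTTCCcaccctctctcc
The core occurred 4 times in the window of *Kdr*, 4 times in that of *Flt1*, 2 times in that of *Tek* and 7 times in that of *Tie1*. Windows were available for 7 of the endothelial genes, and 6 windows of these genes held the core. It is short and common, being present in 93.4% of all 32851 windows with a median of 3 matches, so its presence is a description of these letters only.

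All 10 endothelial genes were detected in every library, at low to moderate levels. Levels are given in FPKM, which divide reads by gene length and library size, so that genes can be ranked against each other. *Eng* was the highest, with a mean over the 4 libraries of 15.9 FPKM, followed by *Pecam1* (13.6), *Vwf* (9.28), *Emcn* (6.67), *Tie1* (5.57), *Kdr* (4.25), *Flt1* (2.98), *Ptprb* (2.84), *Tek* (2.63) and *Cldn5* (2.03). Between neighbours in this order the ranges over the 4 libraries overlapped for *Emcn* and *Tie1*, for *Flt1* and *Ptprb* and for *Ptprb* and *Tek*, and all other neighbours were separated. Within libraries *Emcn* was above *Tie1* in 4 of 4, *Ptprb* above *Tek* in 3 of 4 and *Flt1* above *Ptprb* in 2 of 4, so that the last of these pairs had no order. *Eng* stood at percentile 67.5 and *Cldn5* at percentile 24.7 of all genes listed in every library. *Th*, which encodes the rate-limiting enzyme of catecholamine synthesis and marks the neurons that dominate this tissue, was between 163 and 172 times higher than *Eng* in FPKM.

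**Figure D1:**
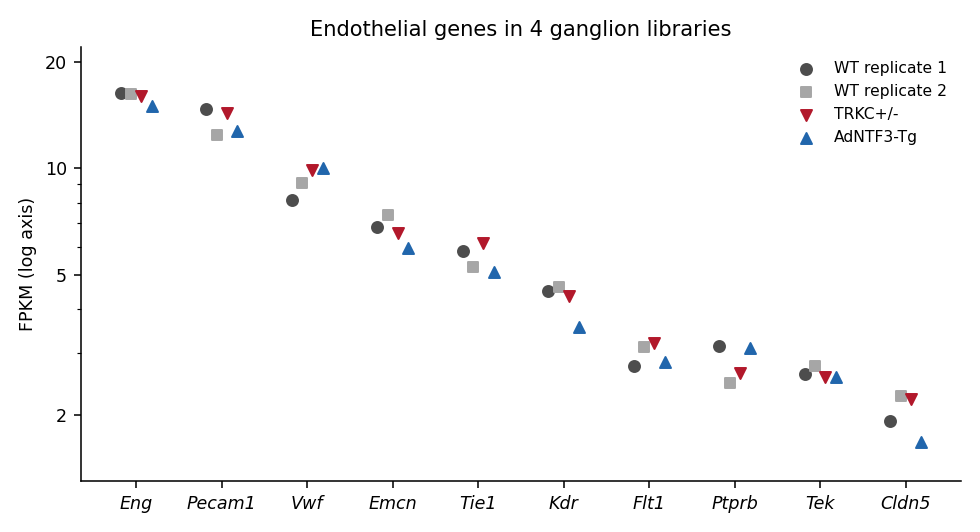
FPKM (log axis) of the 10 endothelial genes, ordered by their mean, in each of the 4 libraries, 1 symbol per library and gene. *Eng* lies between 15.02 and 16.37 FPKM in all 4 libraries and *Cldn5* between 1.68 and 2.26, and for no gene do the mutant libraries stand clear of WT by more than a small part of the range across genes.

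Among the VEGF receptors, *Kdr* (Entrez 16542, chromosome 5, 76328852 to 76374483, minus strand, on NCBIM37) was the endothelial gene with the largest difference in AdNTF3-Tg. It had 4.48 FPKM (211 reads) in WT replicate 1, 4.62 (221 reads) in WT replicate 2, 4.36 (210 reads) in the library labelled TRKC+/- and 3.55 (169 reads) in AdNTF3-Tg. Both WT libraries and the library labelled TRKC+/- thus lay close together, and AdNTF3-Tg lay below all of them. Differences are given on the log2 scale as log2(FPKM + 0.1) of the mutant library less the mean of the same quantity in the 2 WT libraries, a scale that understates the change of low genes. For *Kdr* in AdNTF3-Tg the difference was −0.35, with a 95% counting interval of −0.63 to −0.10 from the exact binomial interval of its reads against those of both WT libraries. This interval covers counting error only and says nothing of the spread between animals. In edgeR's quasi-likelihood test, whose spread comes from the 2 WT libraries, the log2 fold change was −0.35 (SE 0.17) with an adjusted p of 0.817 over the 14156 genes tested. *Kdr* therefore did not pass the test. In the library labelled TRKC+/- its difference was −0.060.

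*Flt1* (Entrez 14254, chromosome 5, 148373180 to 148537587, minus strand) encodes the receptor that binds VEGF tightly and signals weakly. It had 2.75 FPKM (149 reads) in WT replicate 1, 3.11 (171 reads) in WT replicate 2, 3.21 (178 reads) in the library labelled TRKC+/- and 2.83 (155 reads) in AdNTF3-Tg. AdNTF3-Tg lay between the WT libraries, and the library labelled TRKC+/- lay just above both. The difference was −0.046 in AdNTF3-Tg and 0.13 in the library labelled TRKC+/-, both with counting intervals that include 0. The ratio of *Kdr* to *Flt1* in FPKM was 1.63 in WT replicate 1, 1.49 in WT replicate 2, 1.36 in the library labelled TRKC+/- and 1.25 in AdNTF3-Tg. *Kdr* was the higher of the pair in every library, and both mutant libraries had a lower ratio than both WT libraries, a description with no test.

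The ligands of these receptors were abundant beside them. *Vegfb* had between 25.18 and 32.41 FPKM and *Vegfa* between 16.13 and 20.22, while *Pgf*, *Vegfc* and *Vegfd* were at or under 3.57 FPKM. *Vegfa*, the principal VEGFR2 ligand, had 19.31 FPKM in WT replicate 1, 20.22 in WT replicate 2, 17.71 in the library labelled TRKC+/- and 16.13 in AdNTF3-Tg. Both mutant libraries thus lay below both WT libraries, AdNTF3-Tg by −0.29 (edgeR adjusted p = 0.817) and the library labelled TRKC+/- by −0.16 (edgeR adjusted p = 0.999). The neuropilin *Nrp1*, a VEGF co-receptor that neurons also make, was between 3.61 and 4.25 times higher than *Kdr*. *Flt4*, the receptor of lymphatic endothelium, had only 19 to 39 reads.

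In the TIE system *Tie1* (Entrez 21846, chromosome 4, 118143796 to 118162666, minus strand) was between 1.9 and 2.39 times as high as *Tek* in FPKM. *Tie1* had 5.83 FPKM (194 reads) in WT replicate 1, 5.24 (177 reads) in WT replicate 2, 6.13 (209 reads) in the library labelled TRKC+/- and 5.08 (171 reads) in AdNTF3-Tg. The library labelled TRKC+/- was the highest and AdNTF3-Tg the lowest, at differences of 0.15 and −0.12, but the WT pair was 0.15 apart as well. *Tek* (Entrez 21687, chromosome 4, 94405980 to 94541667, plus strand), the angiopoietin receptor itself, was the steadiest of the 10 genes in absolute terms. It had 2.62 FPKM (105 reads) in WT replicate 1, 2.76 (112 reads) in WT replicate 2, 2.56 (105 reads) in the library labelled TRKC+/- and 2.57 (104 reads) in AdNTF3-Tg. Its SD over the 4 libraries was 0.092 FPKM, and neither difference, −0.068 in the library labelled TRKC+/- and −0.063 in AdNTF3-Tg, was beyond counting error.

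*Ptprb* (Entrez 19263, chromosome 10, 115712579 to 115826594, plus strand), whose phosphatase acts on TIE2, varied more between the WT libraries than between either mutant library and WT. It had 3.15 FPKM (325 reads) in WT replicate 1, 2.47 (259 reads) in WT replicate 2, 2.63 (278 reads) in the library labelled TRKC+/- and 3.09 (323 reads) in AdNTF3-Tg. Both mutant libraries lay between the WT libraries, which differed by 0.34 (counting interval 0.12 to 0.60). Of the ligands, *Angpt2*, which endothelial cells release and which antagonises TIE2 in many settings, had 214 reads in WT replicate 1, 271 in WT replicate 2, 206 in the library labelled TRKC+/- and 208 in AdNTF3-Tg. Both mutant libraries were below both WT libraries, at −0.25 in the library labelled TRKC+/- and −0.21 in AdNTF3-Tg, and neither passed edgeR's test (adjusted p of 0.999 and 0.844). *Angpt1*, the activating ligand, had only 2 to 5 reads per library, at or near the 3 reads taken as the smallest signal this depth can show.

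*Eng* (Entrez 13805, chromosome 2, 32502115 to 32538189, plus strand) differed least between the WT libraries on the log2 scale, by 0.016. It had 16.37 FPKM (481 reads) in WT replicate 1, 16.19 (487 reads) in WT replicate 2, 16.02 (483 reads) in the library labelled TRKC+/- and 15.02 (446 reads) in AdNTF3-Tg. AdNTF3-Tg was the lowest, by −0.12 with a counting interval of −0.29 to 0.04 that includes 0. *Acvrl1*, which encodes ALK1, followed it closely, with a ratio of *Eng* to *Acvrl1* between 2.25 and 2.29 in all 4 libraries. The ALK1 target genes *Id1* and *Id3* had 153 to 194 and 708 to 852 reads. *Id1* was lowest in AdNTF3-Tg, with 153 reads, at −0.32 (counting interval −0.62 to −0.07, edgeR adjusted p = 0.817). *Bmpr2*, which encodes the type II receptor that pairs with ALK1, went the other way, with 11.18 FPKM in WT replicate 1, 14.44 in WT replicate 2, 11.9 in the library labelled TRKC+/- and 17.21 in AdNTF3-Tg. It was highest in AdNTF3-Tg, at 0.43 (counting interval 0.33 to 0.51, edgeR adjusted p = 0.817), while the WT libraries differed by −0.37. Of the 12 genes of ALK1 and BMP signalling listed in all 4 libraries, 4 lay above both WT libraries in AdNTF3-Tg (*Bmpr2*, *Smad1*, *Smad6* and *Smad9*) and 6 below both, where 33.7% and 34.0% of all genes did, with a median of −0.045. In the library labelled TRKC+/- 7 lay above both and 4 below both, where 31.9% and 30.8% of all genes did, with a median of 0.069. The circulating ALK1 ligands *Gdf2* and *Bmp10*, made in liver and heart, were at most at 3 reads and not listed, respectively.

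At endothelial contacts, *Pecam1* (Entrez 18613, chromosome 11, 106515531 to 106611942, minus strand) had 14.74 FPKM (413 reads) in WT replicate 1, 12.42 (353 reads) in WT replicate 2, 14.38 (410 reads) in the library labelled TRKC+/- and 12.79 (360 reads) in AdNTF3-Tg. Both mutant libraries lay inside the span of the WT libraries, which differed by 0.25 (counting interval 0.05 to 0.47). *Pecam1* is also made by platelets and leucocytes. *Cldn5* (Entrez 12741, chromosome 16, 18776940 to 18778353, plus strand), the claudin that seals the blood-brain barrier, was the lowest of the 10 genes, with 23, 27, 27 and 20 reads in WT replicate 1, WT replicate 2, the library labelled TRKC+/- and AdNTF3-Tg. At this depth its counting interval ran from −1.16 to 0.44 in AdNTF3-Tg, so that a change of up to that size was not detectable. Other claudins were higher than *Cldn5*, with *Cldn1*, typical of epithelia and perineurium, at 2.52 to 5.53 times its FPKM and *Cldn12* at 2.5 to 3.36 times. The VE-cadherin gene *Cdh5*, which was not among the 10 but marks the same cells, had 6.58 FPKM in WT replicate 1, 4.99 in WT replicate 2, 7.23 in the library labelled TRKC+/- and 5.53 in AdNTF3-Tg. It was highest in the library labelled TRKC+/-, by 0.33 (edgeR adjusted p = 0.999), and the WT libraries differed by 0.39.

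*Emcn* (Entrez 59308, chromosome 3, 137004031 to 137095149, plus strand) had 6.80 FPKM (84 reads) in WT replicate 1, 7.38 (92 reads) in WT replicate 2, 6.56 (82 reads) in the library labelled TRKC+/- and 5.95 (73 reads) in AdNTF3-Tg. Both mutant libraries lay below both WT libraries, by −0.11 and −0.25, with counting intervals that include 0. *Vwf* (Entrez 22371, chromosome 6, 125496792 to 125636697, plus strand) went the other way. It had 8.11 FPKM (619 reads) in WT replicate 1, 9.11 (708 reads) in WT replicate 2, 9.87 (772 reads) in the library labelled TRKC+/- and 10.02 (775 reads) in AdNTF3-Tg. Both mutant libraries lay above both WT libraries, at 0.20 (counting interval 0.07 to 0.33) in the library labelled TRKC+/- and 0.22 (0.09 to 0.34) in AdNTF3-Tg. Neither passed edgeR's test, at a log2 fold change of 0.19 (SE 0.12) with an adjusted p of 0.999 and of 0.22 (SE 0.12) with an adjusted p of 0.817, and the WT libraries themselves differed by −0.17 (−0.32 to −0.01). Platelets also carry *Vwf* RNA, and of 7 platelet genes 5 were listed in all 4 libraries, 2 of them called in AdNTF3-Tg (*Gp1ba* and *Gp5*), where 5.7% of all genes were, and 1 in the library labelled TRKC+/- (*Gp5*), where 4.27% were. *Gp1ba*, a defining platelet gene, had 6 reads in WT replicate 1, 4 in WT replicate 2, 5 in the library labelled TRKC+/- and 15 in AdNTF3-Tg (edgeR adjusted p = 0.817). *Gp5* had only 1 to 4 reads, with counting intervals that include 0, and was too low for edgeR's test. The part of platelet RNA in the difference of *Vwf* was not tested. *Selp*, which encodes the P-selectin stored in the same granules, did not follow it, with 34 reads in WT replicate 1, 53 in WT replicate 2, 43 in the library labelled TRKC+/- and 33 in AdNTF3-Tg.

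None of the 10 genes was called in either mutant library. A gene was called when its log2 FPKM difference was at least 0.5, the size of cutoff named in the study's methods, in the same direction against both WT libraries. This is a description and not a test. By this rule 0 of 10 were called in AdNTF3-Tg, where 5.7% of the 15275 genes were called, 0 of 10 in the library labelled TRKC+/-, where 4.27% were, and 0 of 10 reached the cutoff between the WT libraries, where 13.4% did. For the 12752 genes whose mean reached 1 FPKM, as it did for all 10, these shares were 2.6%, 1.64% and 7.26%. With backgrounds this small, a count of 0 among 10 genes is near what the background gives. Their median difference was −0.098 in AdNTF3-Tg and 0.032 in the library labelled TRKC+/-, beside 0.0017 and 0.0049 over all genes. Against WT replicate 1 alone the medians were −0.16 in AdNTF3-Tg and −0.032 in the library labelled TRKC+/-, so the size of the former and the sign of the latter depended on the WT library. The members ran from −0.35 (*Kdr*) to 0.22 (*Vwf*) in AdNTF3-Tg and from −0.11 (*Emcn*) to 0.20 (*Vwf*) in the library labelled TRKC+/-, against −0.22 (*Cldn5*) to 0.34 (*Ptprb*) between the WT libraries.

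Without regard to size, 6 of the 10 genes in AdNTF3-Tg lay below both WT libraries (*Kdr*, *Tek*, *Tie1*, *Cldn5*, *Eng* and *Emcn*), where 34.0% of all genes and 34.7% of those with at least 1 FPKM did, and *Vwf* lay above both, where 33.7% and 34.5% did. In the library labelled TRKC+/- 4 lay below both (*Kdr*, *Tek*, *Eng* and *Emcn*), where 30.8% of all genes and 30.5% of those with at least 1 FPKM did, and 3 above both (*Flt1*, *Tie1* and *Vwf*), where 31.9% and 32.6% did. Because both mutant libraries were set against the same WT libraries, these sets are not independent of each other. For *Kdr* in AdNTF3-Tg alone did the counting intervals against each WT library separately both exclude 0. Between the WT libraries they did so for *Pecam1*, *Ptprb* and *Vwf*. The counting interval lay wholly within ±0.5 for 8 of the 10 genes in the library labelled TRKC+/-, all but *Cldn5* and *Emcn*, and for 7 in AdNTF3-Tg, where *Kdr* was the third exception.

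In edgeR's test 0 of the 10 genes passed an adjusted p of 0.05 in either comparison, and 0 had an unadjusted p under 0.05. DESeq2 called 0 of them too. Over all 14156 genes the test called 0 in AdNTF3-Tg (percent called 0), with 832 (5.88%) at an unadjusted p under 0.05. It called 1 in the library labelled TRKC+/- (0.00706%), *Ucp1*, the uncoupling protein of brown fat, with 273 (1.93%) at an unadjusted p under 0.05. DESeq2, run on 17619 genes with no filter on low counts, called 0 in AdNTF3-Tg and 2 in the library labelled TRKC+/-, with 64 and 21 at an unadjusted p under 0.05. The fit has 1 residual degree of freedom, from the pair of WT libraries, and assumes that the lone mutant libraries vary as they do. In bulk tissue, fewer endothelial cells and less RNA per endothelial cell cannot be told apart.

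**Figure D2:**
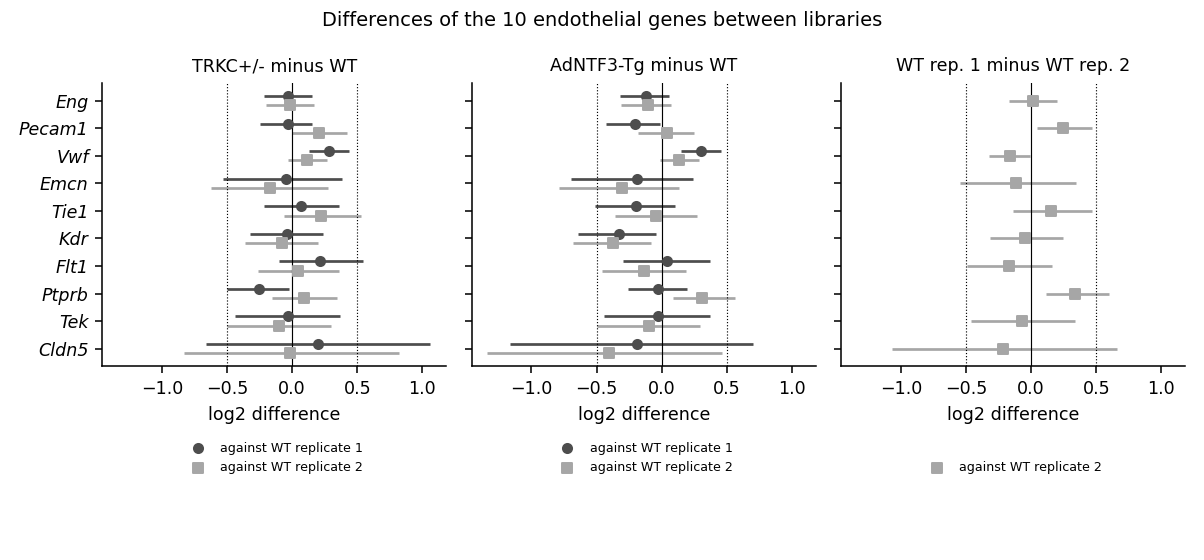
Log2 FPKM differences of the 10 endothelial genes, with lines for the 95% counting interval of the reads. The first panels set the library labelled TRKC+/- and AdNTF3-Tg against WT replicate 1 (dark circles) and WT replicate 2 (grey squares), the last sets the WT libraries against each other, and dotted lines mark ±0.5. All points lie inside the dotted lines, and in AdNTF3-Tg both intervals of *Kdr* lie below 0.

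The summed reads of the 10 genes were steady. They held 2604 reads in WT replicate 1, 2607 in WT replicate 2, 2754 in the library labelled TRKC+/- and 2596 in AdNTF3-Tg, which is 300, 295, 310 and 295 CPM, reads scaled to the library total. *Vwf* alone took between 23.8% and 29.9% of them. Its share was 23.8% in WT replicate 1 (exact 95% binomial interval 22.1% to 25.5%), 27.2% in WT replicate 2 (25.5% to 28.9%), 772 of 2754 reads in the library labelled TRKC+/- (26.4% to 29.8%) and 29.9% in AdNTF3-Tg (28.1% to 31.7%). The share was highest in AdNTF3-Tg, with an interval that overlaps those of WT replicate 2 and of the library labelled TRKC+/- but not that of WT replicate 1. *Kdr* took 8.10% of the reads in WT replicate 1, 8.48% in WT replicate 2, 7.63% in the library labelled TRKC+/- and 6.51% in AdNTF3-Tg (5.59% to 7.53%). Without *Vwf*, the other 9 genes summed to 229, 215, 223 and 207 CPM in the same order, lowest in AdNTF3-Tg.

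**Figure D3:**
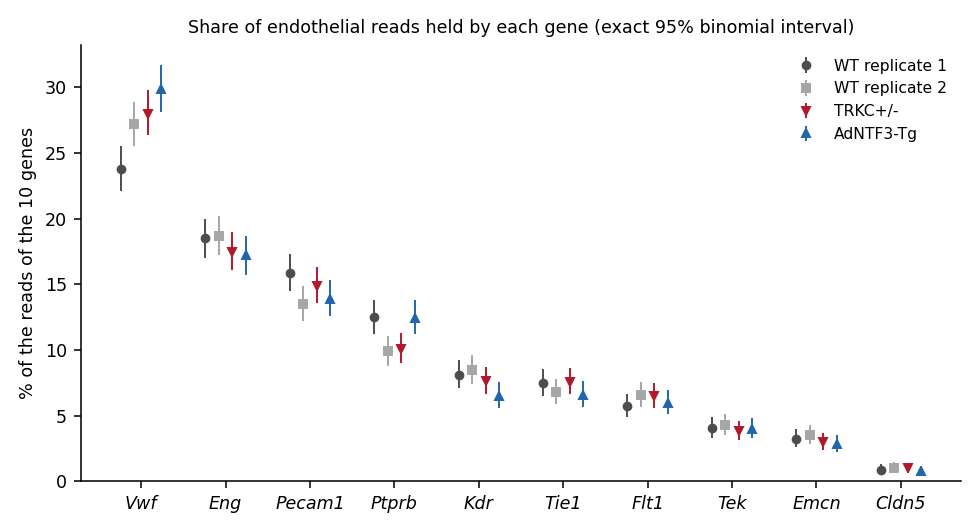
Share of the reads of the 10 endothelial genes held by each gene, in percent, with 1 symbol per library and exact 95% binomial intervals that cover counting error only. *Vwf* holds the largest share in every library, from 23.8% in WT replicate 1 to 29.9% in AdNTF3-Tg, and *Kdr* is lowest in AdNTF3-Tg at 6.51%.

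Beyond these genes, 123 others with a role in vessels were listed in 10 groups, from VEGF ligands to endothelial transcription factors, of which 116 were found in all 4 libraries. In AdNTF3-Tg 1 of the 116 was called (0.862%, beside 5.7% of all genes), in the library labelled TRKC+/- 8 were (6.9%, beside 4.27%), and 17 reached the cutoff between the WT libraries (14.7%, beside 13.4%). Their medians were −0.015, 0.046 and 0.061. In edgeR's test 0 of the 114 tested passed in either comparison, with 5 in AdNTF3-Tg and 3 in the library labelled TRKC+/- at an unadjusted p under 0.05, as 5.88% and 1.93% of all genes were. Many of these genes are also expressed outside vessels, so that their level here is not that of endothelium alone. *Mcam* and *Gata2*, for instance, had 413.54 to 435.67 and 43.84 to 48.85 FPKM, far above the endothelial genes.

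The gene called in AdNTF3-Tg was *F8*, which encodes clotting factor VIII, a product of endothelium. It had 6 reads in WT replicate 1, 13 in WT replicate 2, 22 in the library labelled TRKC+/- and 34 in AdNTF3-Tg, so that both mutant libraries lay above both WT libraries, and it was also called in the library labelled TRKC+/-. The differences were 1.36 (counting interval 0.98 to 2.72) in AdNTF3-Tg and 0.85 (0.24 to 2.16) in the library labelled TRKC+/-, with edgeR adjusted p of 0.817 and 0.999. The WT libraries themselves differed by −0.58, which is past the size of the cutoff. *F8* was thus highest in AdNTF3-Tg. *Vwf*, whose product circulates in a complex with that of *F8*, had 775 reads there and 772 in the library labelled TRKC+/-. Among the other genes of haemostasis, *Procr*, the endothelial protein C receptor, had 54.91 to 64.35 FPKM and *Thbd*, thrombomodulin, 9.12 to 10.35, neither being called. Of the 10 haemostasis genes listed in all 4 libraries, 7 lay above both WT libraries in AdNTF3-Tg, where 33.7% of all genes did, with a median of 0.24, and 6 did so in the library labelled TRKC+/-, where 31.9% of all genes did, with a median of 0.052. Of the 9 leucocyte adhesion genes 6 lay below both WT libraries in AdNTF3-Tg, where 34.0% of all genes did, with a median of −0.13, and 6 lay above both in the library labelled TRKC+/-, where 31.9% did, with a median of 0.058.

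*Edn1*, which encodes the vasoconstrictor endothelin 1, had 27 reads in WT replicate 1, 42 in WT replicate 2, 19 in the library labelled TRKC+/- and 53 in AdNTF3-Tg. It was lowest in the library labelled TRKC+/-, where it was called (−0.79, counting interval −1.70 to −0.13, edgeR adjusted p = 0.999), and highest in AdNTF3-Tg (0.62, not called). The WT libraries differed by −0.58. Of the ETS factors, *Erg* was low at 14 to 25 reads, as was *Fli1* at 19 to 34, and *Ets1* had 2.19 to 2.56 FPKM. *Ets2*, of the same family, was higher, at 6.73 to 7.66 FPKM. *Fli1* was called lower in the library labelled TRKC+/- (−0.68), with a counting interval of −1.58 to 0.01 that includes 0, while *Erg* there had its highest value.

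*Fabp4* and *Cd36*, which capillary endothelium uses to take up fatty acids, are also abundant in adipocytes. *Fabp4* had 243.98 FPKM in WT replicate 1, 224.71 in WT replicate 2, 134.45 in the library labelled TRKC+/- and 172.96 in AdNTF3-Tg. It was below both WT libraries in both mutant libraries, at −0.80 in the library labelled TRKC+/-, where it was called (edgeR adjusted p = 0.348), and −0.44 in AdNTF3-Tg (edgeR adjusted p = 0.817). *Cd36* followed it, at −0.53 and −0.50. A list of 8 adipocyte genes, all detected in every library, holds both of them and *Ucp1*, and summed to 375 CPM in WT replicate 1, 333 in WT replicate 2, 209 in the library labelled TRKC+/- and 278 in AdNTF3-Tg. Without *Fabp4* and *Cd36* the other 6 genes summed to 198, 170, 107 and 155 CPM in that order. Without *Ucp1* as well, the remaining 5 summed to 122, 93.6, 94.9 and 95.6 CPM, with both mutant sums within the span of the WT libraries. Gene by gene, 5 of the 8 lay below both WT libraries in the library labelled TRKC+/-, where 30.8% of all genes did, with a median of −0.20. For AdNTF3-Tg 6 of the 8 did, where 34.0% of all genes did, with a median of −0.39. Only 1 of the 8 lay above both in each. The part of adipocyte RNA in the differences of *Fabp4* and *Cd36* was not tested.

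**Figure D4:**
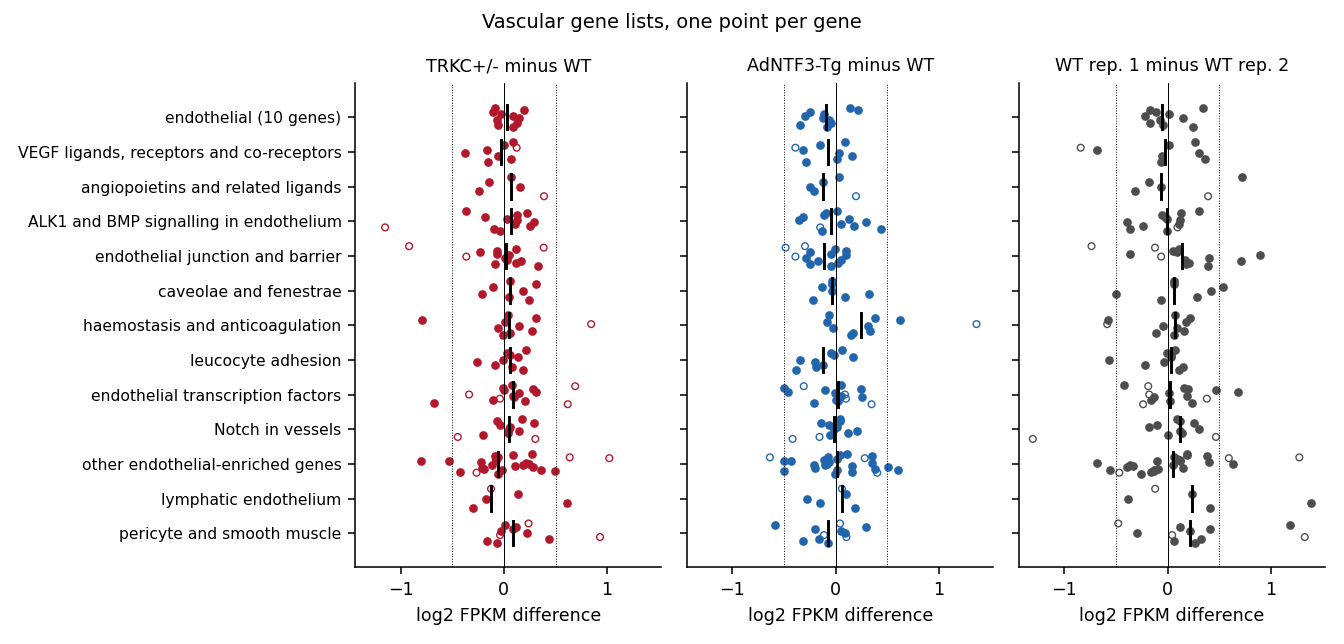
Log2 FPKM differences of genes in the endothelial and vascular lists, 1 point per gene listed in all 4 libraries, with open points for a mean under 1 FPKM, black bars for the median of each list and dotted lines at ±0.5. Panels show the library labelled TRKC+/- and AdNTF3-Tg against the mean of the WT libraries, and WT replicate 1 against WT replicate 2, where 17 of 116 genes outside the 10 reach the dotted lines. The open point at the far right in AdNTF3-Tg is *F8* at 1.36.

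For several vascular genes the WT libraries stood well apart. *Ramp2*, which encodes a subunit of the adrenomedullin receptor of endothelium, had 38.16 FPKM in WT replicate 1 and 24.59 in WT replicate 2, a difference of 0.63. *Klf2*, a flow-induced transcription factor, had 8.35 and 5.17 FPKM, and *Lyve1*, a marker of lymphatic endothelium and of some macrophages, 3.78 and 1.38. Both mutant libraries lay between the WT libraries for *Ramp2* and *Lyve1*. For *Klf2* the library labelled TRKC+/- did so, while AdNTF3-Tg, at 4.74 FPKM, lay below both.

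Other cells of the tissue were examined by lists of markers. The 11 genes of pericytes and smooth muscle summed to between 219 and 269 CPM, the 8 of fibroblasts to between 806 and 1030 and the 10 of macrophages and leucocytes to between 203 and 256. In each of these lists WT replicate 1 was above WT replicate 2. The macrophage and leucocyte sum was 256 CPM in WT replicate 1, 223 in WT replicate 2, 230 in the library labelled TRKC+/- and 203 in AdNTF3-Tg. In AdNTF3-Tg it was thus below both WT libraries, as were 7 of its 10 genes, where 34.0% of all genes were, with a median of −0.24 and 0 called. Its part in the lower values of endothelial genes in AdNTF3-Tg was not tested. Lymphatic endothelial genes summed to between 67.6 and 74.1, of which *Pdpn* and *Reln* are also made by other cells. Platelet genes summed to 33.5 CPM in WT replicate 1, 32.9 in WT replicate 2, 34.4 in the library labelled TRKC+/- and 37.4 in AdNTF3-Tg, mostly from *Itgb3* (179 to 225 reads), which endothelium and macrophages also make, and *Pf4* (48 to 80 reads). Of the defining platelet genes *Gp9* was not listed in any library and *Ppbp* had at most 4 reads. Of the 5 platelet genes listed in all 4 libraries, 4 lay above both WT libraries in AdNTF3-Tg, where 33.7% of all genes did, with a median of 0.55, and 2 did so in the library labelled TRKC+/-, where 31.9% did. The platelet sum was thus highest in AdNTF3-Tg, where *Vwf* had 775 reads, against 772 in the library labelled TRKC+/-. *Pf4* went the other way and was the 1 platelet gene below both WT libraries in AdNTF3-Tg. It had 48 reads there, 80 in WT replicate 1, 49 in WT replicate 2 and 60 in the library labelled TRKC+/-.

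The lists that differed most between libraries were those of blood and muscle. Red cell genes summed to 95.3 CPM in WT replicate 1, 35.1 in WT replicate 2, 79.6 in the library labelled TRKC+/- and 47.8 in AdNTF3-Tg, and skeletal muscle genes to 164, 4.07, 71.6 and 54.7. The 10 endothelial genes spanned 295 to 310. Glial genes summed to between 3140 and 3650. Of these 9 genes 7 lay above both WT libraries in the library labelled TRKC+/-, where 31.9% of all genes did, with a median of 0.19. Of the 8 fibroblast genes 6 did so there, with a median of 0.24, and 0 of either list lay below both. Sympathetic neuron genes, which define the tissue, summed to between 19400 and 19900 CPM, and all 10 were detected in every library.

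**Figure D5:**
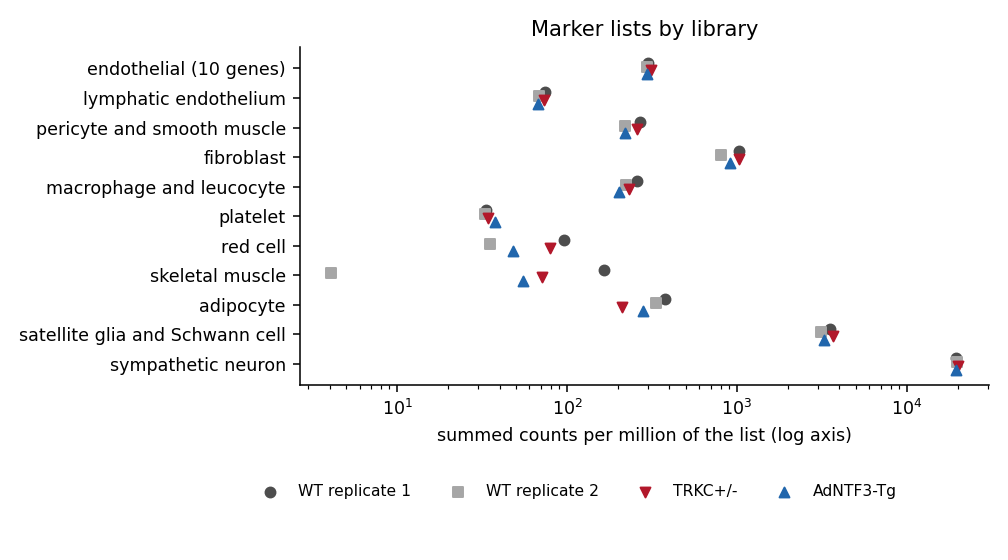
Summed CPM (log axis) of marker lists for the cell types of the tissue, 1 symbol per library. The 10 endothelial genes lie between 295 and 310 in all 4 libraries, while skeletal muscle genes run from 4.07 in WT replicate 2 to 164 in WT replicate 1.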

How the data were processed

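Sympathetic ganglion RNA was measured in 4 libraries. Per the methods, poly(A) RNA was read from 1 end, cleaned with SOAPnuke and aligned to mm9 with HISAT2, whereas the submitters' processing notes list mm10 and RSEM. Strand use in counting is not given in the sources used here, so antisense reads cannot be told apart. Per gene, the authors deposited expected counts, not normalized, and FPKM, scaled to gene length and library size. Gene positions came from GENCODE on NCBIM37 and symbols from RefSeq (99.7% of identifiers matched).

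FPKM were compared as log2(FPKM + 0.1) over 15275 genes. Rounded expected counts were tested with edgeR 4.0.16 (TMM, filterByExpr, quasi-likelihood, Benjamini-Hochberg adjustment) in 3 groups, and with DESeq2 1.42.0 as an alternative. P-values measure only the spread between the WT libraries, which may be technical or a difference of cohort. Clopper-Pearson intervals (95%) and the floor of 3 reads (0.337 to 0.346 CPM) cover counting error only, since reads carry no molecular identifiers. The endothelial genes and the lists were chosen with earlier results of these data known. Per list, the 3 genes with the highest mean FPKM and up to 4 that passed the cutoff with a mean of at least 1 FPKM could be named. *Flt4*, *Vegfc*, *Vegfd*, *Angpt1*, *Acvrl1*, *Gdf2*, *Bmp10*, *Cdh5*, *Cldn12*, *F8*, *Smad1*, *Smad6*, *Smad9*, *Erg*, *Ets1*, *Ets2*, *Cd36*, *Gp1ba*, *Gp5*, *Gp9* and *Ppbp* were named after their values were seen. Scripts were tested on simulated data. Alternatives were other pseudocounts, filters, scalings, cutoffs and tools, and leaving out each WT library.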

Additional observations from a re-analysis of the deposited data

How the results depend on the processing

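The count of called endothelial genes was 0 of 10 in both comparisons and between the WT libraries under a pseudocount of 1 or 0.01, the filter at a mean of 1 FPKM, missing genes taken as 0, TMM-scaled log2 CPM, centring on the median of all genes, a cutoff of 1 and, for the mutants, without either WT library. The counts of genes below or above both WT libraries were also the same under the pseudocounts, the filter, missing genes as 0 and both scalings, alternatives added after the data were seen. The median difference of the 10 genes ranged, without one or the other WT library, from -0.032 to 0.015 in the library labelled TRKC+/- and from -0.16 to -0.10 in AdNTF3-Tg. Without WT replicate 2 it was -0.032 in the library labelled TRKC+/- and -0.16 in AdNTF3-Tg, so that the sign in the former rests on the choice of WT library. The number of genes called by edgeR in the library labelled TRKC+/-, 1 as reported, was 2 with RLE size factors, 0 without the filter on low counts, 2 with DESeq2 and 5 with only that library and WT in the fit. The cause was not tested. The difference of *Kdr* in AdNTF3-Tg was between -0.37 and -0.29 over its alternatives. Without a WT library edgeR has no residual degree of freedom, and no count could be given. No paired analysis was possible because each mutant group has 1 library, the labels of the mutants carry no replicate number, and they do not say which WT library belongs with which mutant. Depth limits *Cldn5* and *Emcn* most, and genes with few reads such as *F8*.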
